A study of Arabidopsis thaliana with 39 samples.

Results

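Shoot apices of ld pol2a and ld plants of Arabidopsis thaliana were compared to ask what a pol2a mutation changed in plants that already carried an ld mutation. The comparison used 3 libraries labelled ld pol2a and 3 labelled ld, chosen by their columns in a table of raw counts per gene, and these were 6 of the 39 libraries of the series. Both genotypes carried ld, and ld pol2a carried pol2a in addition. The plants were 7 days old and grown on Murashige and Skoog medium with 16 h of light per day. Each sample pooled 30 dissected apices, and polyadenylated RNA was sequenced without a spike-in. The table also held 3 libraries of pol2a apices and 3 of Col0, the wild type. The other libraries of the series came from whole plantlets and carried a spike-in. The labels do not name the mutant alleles.

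POL2A is the catalytic subunit of polymerase epsilon, which copies the leading strand during S phase. When replication is disturbed in plants, the kinases ATR and ATM activate SOG1, a NAC transcription factor that turns on repair genes, inhibitors of cyclin-dependent kinases and other checkpoint genes. LUMINIDEPENDENS (LD) is a homeodomain protein of the autonomous flowering pathway, which keeps the floral repressor FLC low, and ld plants have high FLC and flower late. FLC in turn holds down SOC1, a promoter of flowering.

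Levels are given in CPM, read counts scaled to library size after TMM, and changes as log2 of ld pol2a over ld. A gene was called when the quasi-likelihood test of edgeR gave an adjusted p under 0.05. The submitters' design text describes the replicates as biological, without naming separate sowings, so p-values cover the spread among these libraries, which may be technical. Without a spike-in, all values are relative to the RNA of each library.

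The 12 apex libraries held 11954021 to 21095025 counts. Library 3 of ld stood apart: over the genes tested its log2 levels had r = 0.953 and 0.966 with the other ld libraries, against 0.989 between those and 0.971 to 0.993 within the other groups. It carried the marks of its label, high FLC and low SOC1, but its highest r with any library, 0.984, was with Col0 library 3. Changes also followed gene length. In the tenth of genes with the shortest exons, 72 to 945 bases, 31.6% were called higher and 6.74% lower in ld pol2a. In the tenth with the longest, 3266 to 16614 bases, 6.2% were called higher and 31.1% lower. The median log2 level of short genes less that of long ones, relative to the mean library, was 0.12, 0.46 and 0.53 in ld pol2a, against -0.65, -0.53 and 0.36 in ld. Many counts of gene lists moved when 1 library was left out, and counts without a named library come from such fits.

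Of 18705 genes tested, 6363 were called (34.0%), 3415 higher (18.3%) and 2948 lower (15.8%) in ld pol2a. Counts of gene lists below are to be set beside these shares, and counts without 1 library beside those of the same fit. A change of at least 2-fold was called for 833 higher (4.45%) and 840 lower (4.49%) genes. Without ld library 3 the counts were 4138 higher (21.9%) and 4303 lower (22.7%), together 44.6%. With the length trend removed, 6533 were called, of which 5440 were among the 6363. Leaving out 1 of 3 other libraries lowered the count by over 1.5 times. It was 3862 (20.4%) without ld pol2a library 2, with 2150 higher and 1712 lower. It was 3955 (20.9%) without ld pol2a library 3, with 2195 higher and 1760 lower. Without ld library 2 it was 4135 (21.9%), with 2142 higher and 1993 lower. Without ld library 1 the count was 4339 (23%), with 2508 higher and 1831 lower. Without ld pol2a library 1 it was 5450 (28.8%), with 2800 higher and 2650 lower. The 3 libraries of ld pol2a did not overlap the 3 of ld in 4460 genes that lay higher (23.8%) and 3755 that lay lower (20.1%), together 43.9%.

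Most genes listed as targets of the DNA damage factor SOG1 or as checkpoint genes were called higher. The activity of SOG1 was not tested. Of 25 SOG1 targets and checkpoint genes, all of them tested, 21 were called higher, 2 lower and 2 neither, with a median log2 change of 1.60. Over all genes the median was -0.02 and 18.3% were called higher. Without ld library 3, 19 rose and 1 fell. The same list in pol2a against Col0 had 20 of 25 called higher and none lower, where 3.7% of all genes were called higher. None of the 25 differed between both pol2a effects in the edgeR test of the difference, and 2 had an unadjusted p under 0.05.

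Promoters of the 4 members with the smallest p in this comparison are shown, and were chosen by that p alone. Bases are written 5′ to 3′ on the strand of the gene. Capitals mark a SOG1 site, taken as CTT and AAG with 7 bases of any kind between them. The pattern reads the same on both strands. Each holds the 300 bases before the annotated gene start, read from TAIR10.1.
TSO2 (chr3:9981621-9981920, minus strand): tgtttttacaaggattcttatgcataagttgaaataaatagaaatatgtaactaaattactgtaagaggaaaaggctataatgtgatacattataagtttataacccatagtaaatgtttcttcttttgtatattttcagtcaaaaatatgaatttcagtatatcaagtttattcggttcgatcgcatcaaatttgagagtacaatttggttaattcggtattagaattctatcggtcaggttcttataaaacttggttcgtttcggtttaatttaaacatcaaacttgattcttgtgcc
SMR7 (chr3:10231568-10231867, minus strand): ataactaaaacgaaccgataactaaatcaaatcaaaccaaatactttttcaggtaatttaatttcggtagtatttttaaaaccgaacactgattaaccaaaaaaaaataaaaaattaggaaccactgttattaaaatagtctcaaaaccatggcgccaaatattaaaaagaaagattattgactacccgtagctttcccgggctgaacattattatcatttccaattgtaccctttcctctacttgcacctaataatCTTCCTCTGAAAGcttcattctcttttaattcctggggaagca
RPA1E (chr4:10469330-10469629, minus strand): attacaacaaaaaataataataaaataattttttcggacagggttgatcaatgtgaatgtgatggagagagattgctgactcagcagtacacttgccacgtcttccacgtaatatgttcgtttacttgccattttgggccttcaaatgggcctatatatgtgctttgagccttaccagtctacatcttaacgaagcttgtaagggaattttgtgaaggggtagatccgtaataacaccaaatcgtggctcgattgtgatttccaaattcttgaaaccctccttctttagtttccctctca
NAC044 (chr3:228775-229074, plus strand): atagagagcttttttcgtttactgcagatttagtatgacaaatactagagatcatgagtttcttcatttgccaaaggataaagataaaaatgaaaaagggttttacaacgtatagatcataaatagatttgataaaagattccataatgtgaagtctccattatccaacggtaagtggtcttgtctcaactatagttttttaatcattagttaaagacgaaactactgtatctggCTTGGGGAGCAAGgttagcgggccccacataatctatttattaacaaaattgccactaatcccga
The site was present in SMR7, 43 bases before the start, and in NAC044, 65 bases before it, and these letters were not found in the windows of TSO2 and RPA1E. It was found in 7 of the 25 promoters of the list and in 10.4% of the promoters of all 18532 tested genes with one. Among genes called higher the share was 10.8%. It was 13.5% among those at least 2-fold higher and 20.5% among the 127 that were at least 4-fold higher, against 10.5% among genes called lower. The higher sets include members of the list that hold the site, such as SMR7 and NAC044, and no share was taken without them. A match is a description of letters and not a bound site.

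SMR7, an inhibitor of cyclin-dependent kinases, was at 13.5, 17.4 and 15.2 CPM in ld pol2a, against 0.334, 0.447 and 0.564 CPM in ld. The groups lay far apart, with 5 to 8 reads per ld library, and the log2 change was 5.08 ± 0.22 (SE, edgeR, adjusted p = 3.5e-08). NAC044, a NAC factor that acts in arrest before mitosis, was at 19.2, 22.9 and 27.8 CPM in ld pol2a, against 0.735, 0.893 and 1.62 CPM in ld. Every ld pol2a library was above every ld one, with a log2 change of 4.42 (edgeR, adjusted p = 1.1e-06). TSO2, the ribonucleotide reductase small subunit that supplies deoxynucleotides, reached 766, 915 and 869 CPM in ld pol2a, against 72.0, 71.7 and 61.1 CPM in ld. Its rise was 12.5-fold, with a log2 change of 3.64 ± 0.13 (SE, edgeR, adjusted p = 1.1e-08). RPA1E, a subunit of the complex that coats single-stranded DNA, was at 17.5, 18.0 and 17.6 CPM in ld pol2a and at 2.07, 2.68 and 2.33 CPM in ld. The ld pol2a libraries were nearly identical, and the log2 change was 2.91 (edgeR, adjusted p = 8.9e-08).

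**Figure D1:**
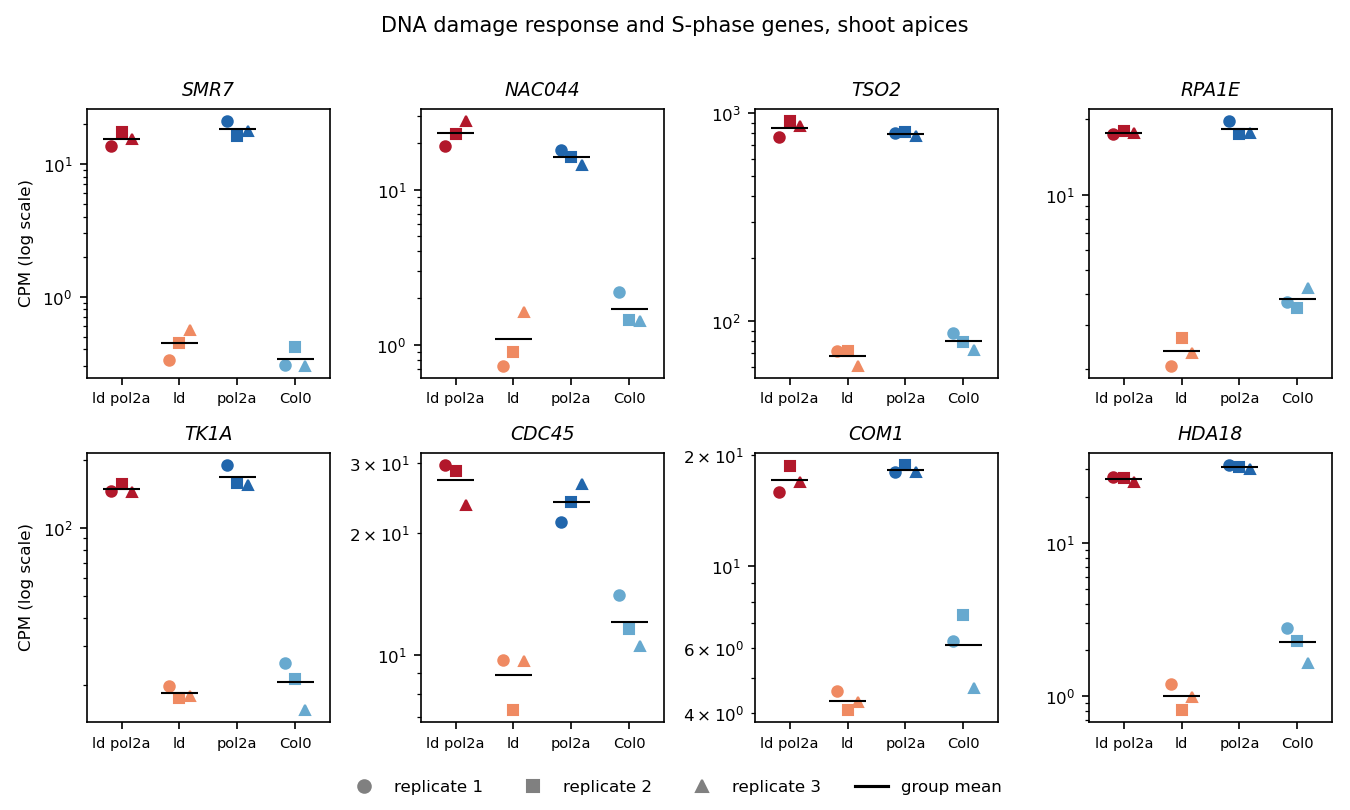
Levels in TMM-scaled CPM of genes of the DNA damage response and S phase, and of HDA18, in the 12 apex libraries, 1 point per library on a log axis, with lines at the group means. In SMR7, NAC044, TSO2 and RPA1E the ld pol2a libraries lie above the ld libraries and the pol2a libraries above the Col0 ones.

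Other members are named here after their values were seen. The kinase inhibitors SMR4 and SMR5 rose, SMR4 by a log2 of 3.25 (edgeR, adjusted p = 1.7e-05). SMR5 had 35, 16 and 11 reads in ld pol2a, against 1, 0 and 2 in ld (adjusted p = 0.0073). The homologous recombination gene BRCA1 (2.27), the poly(ADP-ribose) polymerase PARP2 (1.60), the recombination gene XRI1 (1.84) and the cell cycle kinase WEE1 (1.54) rose in log2 terms. CYCB1;1, a mitotic cyclin that SOG1 also induces, was at 27.7, 28.1 and 28.1 CPM in ld pol2a and at 21.0, 19.0 and 18.7 CPM in ld. The groups did not overlap, but the log2 rise was only 0.51 (edgeR, adjusted p = 0.0091). SOG1 itself, which is controlled mainly by phosphorylation, changed by 0.28 (adjusted p = 0.049), and the call was lost in all 6 fits that left out 1 ld pol2a or ld library. The 2 members that fell, MYB3R3 (-0.68) and MYB3R5 (-0.71), encode repressors of mitotic genes that SOG1 signalling is known to stabilise as proteins. Each lost the call without 1 of several libraries.

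Genes of DNA replication rose as a group. Of 23 tested genes of DNA replication and S phase, 17 were called higher and none lower, with a median log2 change of 0.69. The count was 9 without ld library 2, 10 without ld pol2a library 3, 14 without ld library 3 and 19 with the length trend removed. The thymidine kinase TK1A, which salvages thymidine, was at 145, 156 and 145 CPM in ld pol2a and at 19.9, 17.6 and 18.0 CPM in ld. That was a log2 rise of 3.01 (edgeR, adjusted p = 3.7e-07) with no overlap. PCNA1, the sliding clamp, was at 55.4, 70.7 and 65.9 CPM in ld pol2a and at 20.4, 15.6 and 16.4 CPM in ld (1.87, adjusted p = 1.9e-05). The helicase cofactor CDC45 rose by 1.62 and FAS1, the large subunit of the histone chaperone CAF-1, by 1.32 on the log2 scale. RNR1, the large subunit of ribonucleotide reductase, rose by 1.48, while the replicative helicase subunits MCM2 and MCM5 rose by 0.75 and 0.74, these 3 named after their values were seen. The call of MCM5 was lost without ld library 2. The E2F site TTTCCCGC, on either strand, was found in 7 of the 23 promoters, in 4 of the 17 of genes called higher, and in 0.755% of all.

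The rest of the cell cycle and repair machinery moved less. Of 21 mitotic genes 5 were higher (23.8%, against 18.3% of all genes) and 1 lower (4.76%, against 15.8%), with a median of 0.10. There were 6 called each way without ld library 3. The B-type kinases CDKB1;1, which acts with CYCB1;1 in repair, and CDKB1;2 rose by 1.25 and 1.03. CDKB1;1 was at 31.5, 28.8 and 28.3 CPM in ld pol2a, against 13, 11.2 and 13.2 CPM in ld, without overlap (edgeR, adjusted p = 4.4e-05). CDKB2;1 rose by 0.55 and the cyclin CYCB1;3 by 0.73. Of 18 genes of DNA break repair outside the SOG1 list, 2 were higher and 3 lower, and without ld library 3 the same counts were 2 and 6. COM1, which resects broken ends, was at 15.9, 18.6 and 16.8 CPM in ld pol2a and at 4.61, 4.09 and 4.30 CPM in ld (1.98, adjusted p = 9.3e-06). RAD54, a recombination gene, rose by 1.26 (adjusted p = 4e-04). MRE11, a nuclease of the break-sensing complex, fell by 0.66 (adjusted p = 0.011). UVH1, an excision endonuclease subunit, was called lower at -0.93 (adjusted p = 0.015), a call lost without ld library 1 or 2 or without ld pol2a library 3. Of 12 histone genes written as a list, only 2 could be matched and tested. Of these 1 was called higher and none lower, with a median of 0.105. The called gene HTR12, the centromeric histone H3 variant, rose by 1.12 (adjusted p = 0.0017). The 5 loci of the replication-dependent histone H3.1, a family picked after values were seen, summed to 1306, 1504 and 1477 CPM in ld pol2a and to 621, 468 and 546 CPM in ld. All 5 were called higher, 4 with the length trend removed, and none of 3 loci of the replacement histone H3.3 was called. The H3.1 loci are near-identical copies, so their single levels are uncertain.

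LD and POL2A themselves were read first as the mutated genes, although unknown alleles mean that their levels check no label. LD (AT4G02560, chr4:1123475-1128490, TAIR10.1) was at 4.93, 3.80 and 3.6 CPM in ld pol2a, against 9.62, 11.2 and 4.23 CPM in ld. The pol2a libraries had 11.2 to 18.5 CPM and those of Col0 14.7 to 21.4 CPM. LD was called lower in ld pol2a with a log2 change of -1.0 (edgeR, adjusted p = 0.031), but the groups overlapped and the call was lost when ld library 1 or 2 or ld pol2a library 2 or 3 was left out. POL2A (AT1G08260, chr1:2588854-2606892, with 8805 exon bases) was at 26.1, 20.2 and 17.5 CPM in ld pol2a, against 30.3, 22.4 and 12.1 CPM in ld. These overlapped (log2 change -0.02, adjusted p = 0.97), and with the length trend removed the change was 0.64 (adjusted p = 0.0014).

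FLC stayed high in both groups. It was at 75.5, 90.0 and 95.7 CPM in ld pol2a and at 61.4, 62.5 and 116 CPM in ld, which overlapped because of ld library 3. The log2 change was 0.12 (edgeR, adjusted p = 0.71), and 0.47 (adjusted p = 0.026) without that library. In plants without the ld mutation FLC was at 1.69, 2.09 and 0.972 CPM in pol2a, against 5.68, 4.62 and 5.89 CPM in Col0 (-1.77, adjusted p = 0.010). The difference between both pol2a effects was 1.89 (adjusted p = 0.019), a call lost without ld pol2a library 2 or 3, pol2a library 3 or Col0 library 1. SOC1 was at 2.18, 2.29 and 2.44 CPM in ld pol2a and at 1.27, 2.31 and 2.19 CPM in ld, with overlap (0.27, adjusted p = 0.34). In pol2a it was at 34.4, 37.3 and 35.9 CPM, against 17.8, 18.0 and 22.2 CPM in Col0, a called rise of 0.89 (adjusted p = 0.0040). For SOC1 the difference of effects was not called (-0.63, adjusted p = 0.15).

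Other floral repressors leaned down. Of 18 tested members of the FLC clade and other repressors, 7 were called lower and none higher, with a median of -0.22. The count of lower genes was 2 without ld pol2a library 2, 1 without ld pol2a library 3, and 4 without ld pol2a library 1 or ld library 1. Without ld library 3 there were 5 lower and 1, FLC, higher. SNZ, an AP2-like repressor, was at 5.33, 5.02 and 4.75 CPM in ld pol2a, against 15.0, 13.3 and 9.02 CPM in ld (-1.30, adjusted p = 0.0015). It was lower in every ld pol2a library. Its relative TOE3 (-1.37) and the FLC paralogues MAF3 (-0.93) and MAF4 (-0.88) were also called lower, and each lost the call when some single libraries were left out. MAF5 (-0.74), SVP (-0.50), the partner of FLC, and FRI (-0.61), an activator of FLC, made up the 7 and are named after their values were seen. MAF5 and SVP were not called without ld library 3, and MAF5, SVP and FRI lost the call without some ld pol2a libraries. The MAF genes lie in a cluster of similar copies, so their single levels are uncertain.

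Among floral promoters 2 of 12 were higher and 1 lower. AGL24, a MADS factor that promotes flowering, was at 6.53, 7.89 and 7.13 CPM in ld pol2a and at 3.47, 3.65 and 4.30 CPM in ld (0.91, adjusted p = 8.1e-04). LMI1, an activator of LFY, rose by 1.27 (adjusted p = 0.0019). SPL3, which promotes the change to flowering, was called lower (-1.42, adjusted p = 0.048), but was not called when any 1 of the 6 libraries was left out. Of the 6 tested floral organ identity genes 3 were higher. SEP1 had 24, 16 and 12 reads in ld pol2a, against 0, 1 and 0 in ld (edgeR, adjusted p = 5e-04). SEP2 had 26, 17 and 19 reads in ld pol2a, against 1, 0 and 0 in ld (adjusted p = 8.4e-04). AG had 9, 11 and 17 reads in ld pol2a, against 1, 2 and 2 in ld (adjusted p = 0.0066). All were near absence in ld and low in ld pol2a, and Polycomb proteins are known to silence these MADS genes before flowering. Of the same 6 genes, 4 were called higher in pol2a against Col0. SEP3 was at 3.68, 4.88 and 3.53 CPM in ld pol2a, against 2.34, 2.90 and 2.47 CPM in ld, which did not pass the test (0.64, adjusted p = 0.059).

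Lists of chromatin regulators held called genes in both directions, where 18.3% of all genes were called higher and 15.8% lower. Of 14 Polycomb components MSI1, which also serves in CAF-1, was higher (0.39) and BMI1A lower (-0.67). That was 7.14% each way, under the shares of all genes. There were 2 higher and 5 lower without ld library 3. The autonomous pathway had 1 of 12 higher and 4 lower, and FLC activators 1 of 12 higher and 3 lower. The lower ones were 6 and 5 without ld library 3. In the pathway none was lower without ld pol2a library 2, ld library 1 or ld library 2, and 1 was without ld pol2a library 1 or 3. Of the activators 1 was lower without ld pol2a library 2 or 3 or ld library 1. FLD, a demethylase-like partner of LD, was at 16.6, 16.8 and 16.2 CPM in ld pol2a and at 25.9, 21.6 and 17.6 CPM in ld (-0.40, adjusted p = 0.038). That call was lost without any 1 library other than ld library 3. With the length trend removed the counts were 2 higher and 2 lower for the pathway and 1 lower for the activators. Of 15 genes of DNA methylation and silencing, 5 were higher and 3 lower. The maintenance methyltransferases CMT3 (1.12) and MET1 (0.89), both tied to replication, rose, and the de novo enzyme DRM2 (-0.47) fell. QQS, an orphan gene whose silencing is known to vary between lines, was at 6.08, 5.67 and 5.72 CPM in ld pol2a, against 0.401, 0.372 and 0.141 CPM in ld (4.22, adjusted p = 7.5e-06). In pol2a it was at 1.45, 1.49 and 0.902 CPM, against 0.909, 1.17 and 0.981 CPM in Col0, and the difference of effects was 3.90 (adjusted p = 8.7e-04).

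The 12 largest rises were taken among genes averaging 50 counts or more that have a symbol in the reference annotation, which leaves out SMR7 and RPA1E. They began with HDA18, a histone deacetylase, at 26.7, 26.5 and 24.9 CPM in ld pol2a, against 1.2, 0.819 and 0.987 CPM in ld. It rose 25.6-fold (log2 change 4.68 ± 0.18, SE, edgeR, adjusted p = 1.9e-08). NAC044, QQS, TSO2 and TK1A, described above, were among the 12. NAC103, a NAC factor, rose by 3.44, and NF-YC13, a CCAAT-binding subunit, by 2.95. The chromatin remodeller chr31, of a family that guides RNA-directed DNA methylation, rose by 2.88 and GMI1, an SMC-like protein induced by gamma rays, by 2.85. HEMA3, which starts tetrapyrrole synthesis, rose by 2.67 and ACC2, a plastid acetyl-CoA carboxylase, by 2.46. NSP3, a nitrile-specifier protein, was at 8.08, 4.95 and 1.67 CPM in ld pol2a and at 0.267, 0.298 and 1.34 CPM in ld (2.95, adjusted p = 0.011). Its libraries were scattered, and the call was lost without ld library 2.

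The 12 largest falls were taken in the same way. ESM1, which steers glucosinolate breakdown towards isothiocyanates, was at 25.7, 21.6 and 24.9 CPM in ld pol2a, against 264, 236 and 268 CPM in ld (-3.41, adjusted p = 5.5e-06). It also fell in pol2a, to 11.6, 13.1 and 5.83 CPM, against 359, 290 and 241 CPM in Col0. The myrosinases TGG1 and TGG2 cut glucosinolates in guard cells and myrosin cells. TGG1 was at 216, 179 and 172 CPM in ld pol2a, against 1436, 1311 and 866 CPM in ld (-2.67, adjusted p = 1.9e-05), and TGG2 changed by -3.02. The myrosinases are similar copies, so how reads were split between them is uncertain.

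UVH3, an endonuclease of nucleotide excision repair, had the largest fall of these 12, to 0.977, 0.645 and 0.514 CPM in ld pol2a, against 13.7, 12.4 and 5.78 CPM in ld (-3.83, adjusted p = 4.2e-05). In pol2a it was at 4.27, 6.87 and 7.57 CPM, against 7.87, 8.14 and 6.27 CPM in Col0, and was not called. FRO6, a ferric reductase of green tissue (-2.81), ORG1, an OBP3-responsive gene (-2.50), BT1, a nuclear BTB-TAZ protein (-2.41), and FAMA, a guard cell factor (-2.26), also fell without overlap. CSD2, a plastid copper-zinc superoxide dismutase (-2.67), BCB, a blue copper protein (-2.66), WRKY19 (-2.33) and PLA2A, a lipid hydrolase of defence (-2.25), completed the 12. In these 4 genes ld library 3 was the lowest of its group, between 2.04 and 3.1 CPM, and WRKY19 and PLA2A each lost the call without some single libraries.

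Late genes of the stomatal lineage were lower. Of 10 stomatal lineage genes 6 were called lower and 2 higher, with a median log2 change of -1.31. None was higher without ld pol2a library 2 or 3 or ld library 1 or 2, and 1 was without ld pol2a library 1. FAMA, which commits cells to become guard cells, was at 3.42, 5.31 and 3.98 CPM in ld pol2a, against 20.8, 19.5 and 19.9 CPM in ld (edgeR, adjusted p = 7.2e-06). MUTE, which acts just before FAMA, changed by -1.84 (adjusted p = 6.9e-04). The guard cell factor MYB60 was at 2.04, 1.43 and 2.18 CPM in ld pol2a, against 7.48, 7.00 and 6.48 CPM in ld (-1.87, adjusted p = 5.1e-05). The potassium channel KAT1 of guard cells changed by -1.47 (adjusted p = 8.5e-04). None of these groups overlapped. EPF1, a secreted signal of late lineage cells, changed by -1.16 and TMM, a receptor-like protein of early lineage cells, by 0.45, these named after their values were seen. The TMM groups overlapped, and its call was lost without any 1 library other than ld library 3. In bulk apices, fewer cells of a type and less RNA per cell cannot be told apart. FAMA also fell in pol2a against Col0 (-1.10, adjusted p = 0.0015), and its difference of effects was -1.16 (adjusted p = 0.011).

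**Figure D2:**
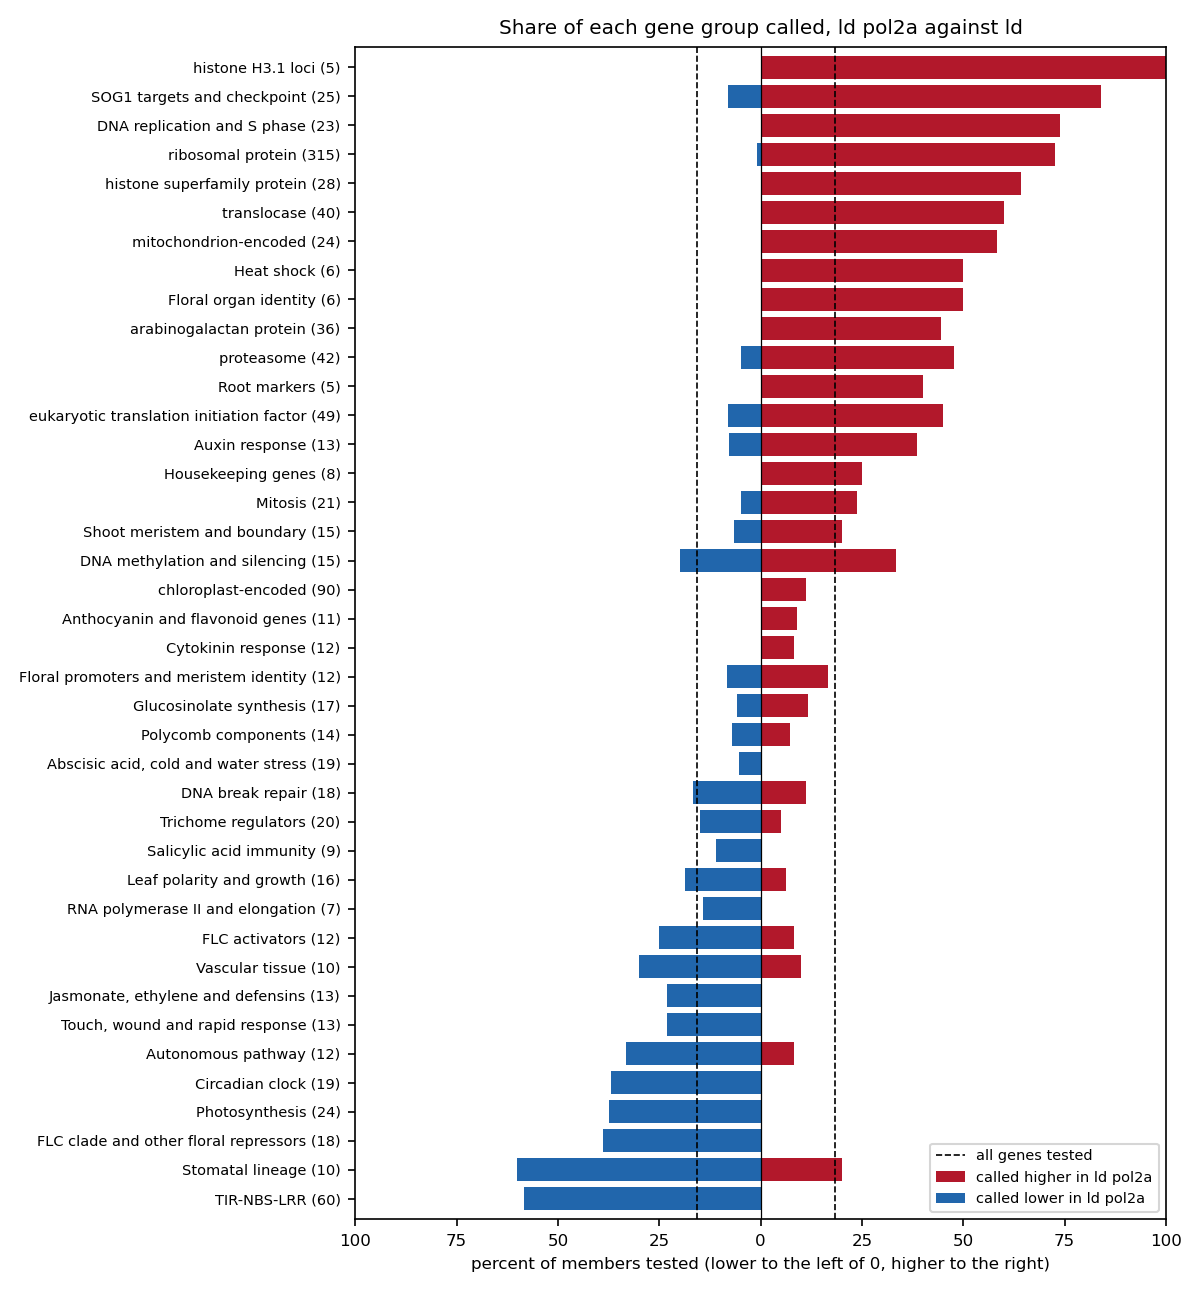
Share of the tested members of each gene group called higher, to the right of 0, or lower, to the left, in ld pol2a against ld, in percent, beside the share over all genes tested. SOG1 targets, replication genes and ribosomal proteins extend to the right, and stomatal genes, photosynthesis genes and TIR-NBS-LRR genes to the left.

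Genes of the apex were read next. Their levels were not set against another tissue, so they do not check the labelled tissue. The meristem gene STM, which keeps cells undifferentiated, was at 10.3, 12.2 and 12.1 CPM in ld pol2a and at 5.41, 5.73 and 7.26 CPM in ld (0.91, adjusted p = 0.0031). WUS and CLV3, which mark the stem cell niche, were too low to test, and seed maturation genes had no member that could be tested. Of 15 meristem and boundary genes 3 were higher and 1 lower. LOB, a boundary gene, rose by 0.78. BLH9 was called higher by 0.32, a call lost without any 1 library other than ld library 3. CLV1, a receptor that limits stem cells, fell by 0.67 (adjusted p = 0.0022), a call not kept with the length trend removed. Leaf polarity genes had 1 of 16 higher (6.25%) and 3 lower (18.75%). The lower ones were 5 without ld library 3, none without ld library 1, and 1 without ld library 2 or ld pol2a library 2 or 3. PHV and PHB, 2 of these 3 and factors of the adaxial leaf side, changed by -1.54 and -0.91 (adjusted p = 0.012 and 0.036). Their groups overlapped because ld library 3 lay at 7.54 CPM for PHV, against 29.2 and 23.5 CPM in the other ld libraries. The call of PHV was lost without ld library 1, and that of PHB without ld library 1 or 2 or ld pol2a library 2 or 3.

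Photosynthesis genes had 9 of 24 lower and none higher, with a median of -0.43. The count of lower genes was 14 with the length trend removed and 6 without ld pol2a library 3. There were 9 lower and 1 higher without ld library 3, with a median of -0.15. GAPA and GAPB, subunits of the chloroplast glyceraldehyde phosphate dehydrogenase, changed by -0.63 and -0.47, and PRK and SBPASE of the Calvin cycle by -0.55 and -0.53. GAPA was at 918, 858 and 802 CPM in ld pol2a and at 1372, 1247 and 1359 CPM in ld, without overlap (adjusted p = 0.0015). Summed over the list the levels were 75540.5, 84323 and 81909 CPM in ld pol2a and 83772, 87673 and 141723 CPM in ld, so the groups overlapped and the sum was highest in ld library 3.

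Of 10 vascular genes 1 was higher and 3 lower. SUC2, the sucrose transporter of companion cells, was at 38.1, 40.7 and 34.2 CPM in ld pol2a, against 47.9, 52.0 and 63.6 CPM in ld (-0.53, adjusted p = 0.0059). The phloem lectin gene PP2-A1 changed by -0.56. Root markers had 2 of 5 higher, at low levels. Trichome regulators had 1 of 20 higher, CPL3 (1.15), and 3 lower, among them TTG1 (-0.41, a call lost without 1 of several libraries). GL1, the factor that starts trichomes, was at 2.53, 2.65 and 2.76 CPM in ld pol2a and at 3.21, 3.65 and 2.61 CPM in ld, with overlap (-0.25, adjusted p = 0.39). In pol2a it was at 0.887, 0.448 and 0.833 CPM, against 2.80, 2.62 and 3.02 CPM in Col0 (-1.95, adjusted p = 0.0010). Its difference of effects was 1.70 (adjusted p = 0.013). In pol2a against Col0, 8 of the 20 trichome genes were lower, where 2.33% of all genes were, and 7 had a called difference of effects above 0, where 5.13% of all genes did. GL2, a homeodomain factor downstream of GL1 named after its values were seen, was at 18.6, 20.1 and 21.5 CPM in ld pol2a and at 22.3, 26.3 and 33.8 CPM in ld. In pol2a it was at 1.45, 2.01 and 3.26 CPM, against 19.2, 17.1 and 29.1 CPM in Col0 (difference of effects 2.80, adjusted p = 0.0020).

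**Figure D3:**
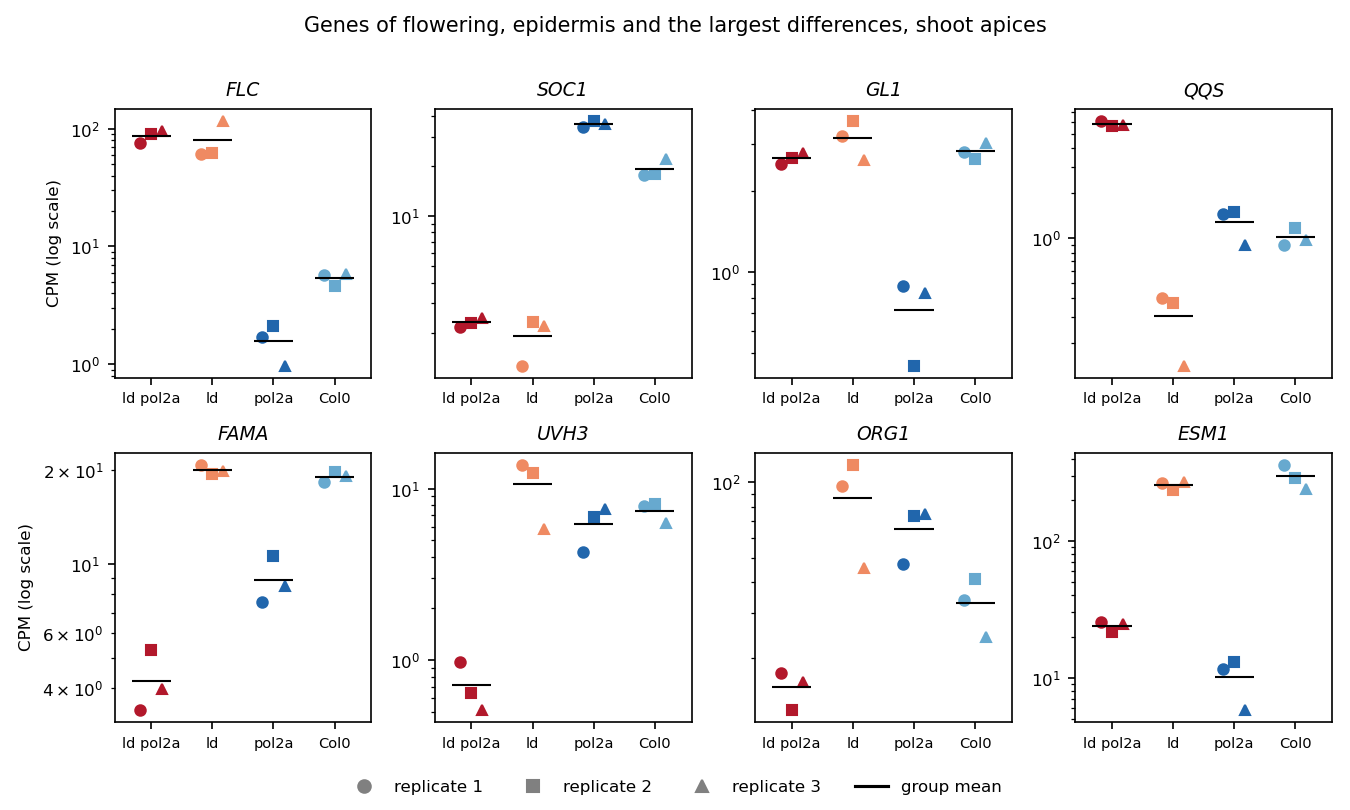
Levels in TMM-scaled CPM of genes in which the change on adding pol2a was set against ld and against Col0, 1 point per library in the 12 apex libraries on a log axis, with lines at the group means. FLC, SOC1 and GL1 differ between pol2a and Col0 and overlap between ld pol2a and ld.

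Clock, hormone and stress genes gave further groups. Of 19 circadian clock genes 7 were lower and none higher, with a median of -0.59, and 4 were lower without ld library 1. PRR7, a daytime repressor of the morning clock genes, was at 64.7, 58.2 and 56.1 CPM in ld pol2a, against 138, 136 and 87.3 CPM in ld (-1.01, adjusted p = 0.0018). The morning factors RVE4 and RVE1 changed by -1.13 and -0.93, and CDF1, a repressor of CONSTANS, by -1.41. All 4 were lower in every ld pol2a library. The labels do not give the time of day of sampling. Of 13 auxin response genes 5 were higher and 1 lower, with a median of 0.49. GH3.3, which conjugates auxin, was at 29.1, 35.4 and 31.8 CPM in ld pol2a, against 12.8, 9.15 and 13 CPM in ld (1.46, adjusted p = 4.2e-04). TAA1, an enzyme of auxin synthesis (0.75), and IAA5, an auxin-induced repressor (2.57), also rose.

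Defensins were low in ld pol2a. PDF1.2, a defensin induced by jasmonate and ethylene, had 5, 0 and 2 reads in ld pol2a, against 61, 108 and 18 in ld (edgeR, adjusted p = 0.0060). Its near-identical relatives PDF1.2c and PDF1.3 had 1, 0 and 2 and 1, 1 and 1 reads in ld pol2a, against 37, 53 and 9 and 22, 61 and 11 in ld. These were the 3 of 13 jasmonate and ethylene genes called lower, and reads may be split among the copies. Of 13 touch and wound genes 3 were lower (23.1%, where 15.8% of all genes were), TCH3 (-1.48), WRKY40 (-2.36) and WRKY33 (-1.64). In each the level of ld library 3 was the lowest of its group. The call of WRKY33 was lost without ld pol2a library 2 or 3 or ld library 1 or 2. Of 6 heat shock genes 3 were higher, among them HSP90.1 (1.28) and ROF2 (1.34). Abscisic acid genes had 1 of 19 lower, salicylic acid genes 1 of 9 lower, cytokinin genes 1 of 12 higher, anthocyanin genes 1 of 11 higher, and glucosinolate synthesis 2 of 17 higher and 1 lower. The anthocyanin member was CHS (1.43, adjusted p = 0.020), a call lost without 1 of several libraries. In both the abscisic acid and the salicylic acid list 3 were lower without ld library 3. RNA polymerase II genes had 1 of 7 lower, or 5 without ld library 3 and 3 with DESeq2. Of 8 housekeeping genes 2 were higher, and none was with the RLE size factors of edgeR.

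Large families were chosen after values were seen. Of 315 tested genes annotated as ribosomal proteins, 229 were called higher and 3 lower, with a median of 0.66, where 18.3% of all genes were called higher. Their summed level was 85914, 100515 and 105550.4 CPM in ld pol2a and 58245, 60657 and 80375 CPM in ld, without overlap. It was 81619, 75257 and 81458 CPM in Col0 and 82801, 69477 and 67796 CPM in pol2a. Thus ld library 3 lay within the range of Col0, and ld libraries 1 and 2 lay below it. In pol2a against Col0 only 6 were higher and 8 lower, and 140 of the 315 had a called difference of effects above 0. Ribosomal protein genes are short, and with the length trend removed 208 were higher and 17 lower. Of 40 genes with the word translocase in their annotated product, 24 were higher (60.0%) and none lower. Of 49 translation initiation factor genes 22 were higher and 4 lower, and of 42 proteasome genes 20 were higher and 2 lower. The higher initiation factors were 11 and 12 without ld pol2a library 2 or 3, 14 without ld library 1 and 13 without ld library 2. The higher proteasome genes were 10 without ld pol2a library 2 or 3 or ld library 2, and 12 without ld library 1.

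Genes of TIR-NBS-LRR immune receptors, which are long, went down. Of 60 tested, 35 were called lower and none higher, with a median of -0.78. The lower ones were 17 and 19 without ld pol2a library 2 or 3, and 18 without ld library 1 or 2. Their summed level was 546, 427 and 430.4 CPM in ld pol2a and 1049, 1069.6 and 618 CPM in ld. It was 724, 824 and 687 CPM in Col0 and 490, 677 and 788 CPM in pol2a. Thus ld libraries 1 and 2 lay above every Col0 library, and ld library 3 lay below them. With the length trend removed 24 were lower and 2 higher, and in pol2a against Col0 none was called. The receptors lie in clusters of similar copies, so single levels are uncertain. Of 24 tested genes encoded in the mitochondrion 14 were called higher. The count was 2 without ld pol2a library 2 or ld library 2, and 4 without ld pol2a library 3 or ld library 1. Without ld library 3 it was 20. The mitochondrial sum was 1645, 2750.5 and 2370.1 CPM in ld pol2a and 528, 727 and 1454 CPM in ld, without overlap. In Col0 this sum was 1427, 1044 and 1528 CPM. Of 90 chloroplast-encoded genes 10 were called higher (11.1%, where 18.3% of all genes were). That count was 59 without ld library 3, 3 without ld pol2a library 2 or 3 and 1 without ld library 1 or 2. The chloroplast sums overlapped, at 5207, 8380 and 8417 CPM in ld pol2a and 1780.1, 2717 and 8469 CPM in ld.

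**Figure D4:**
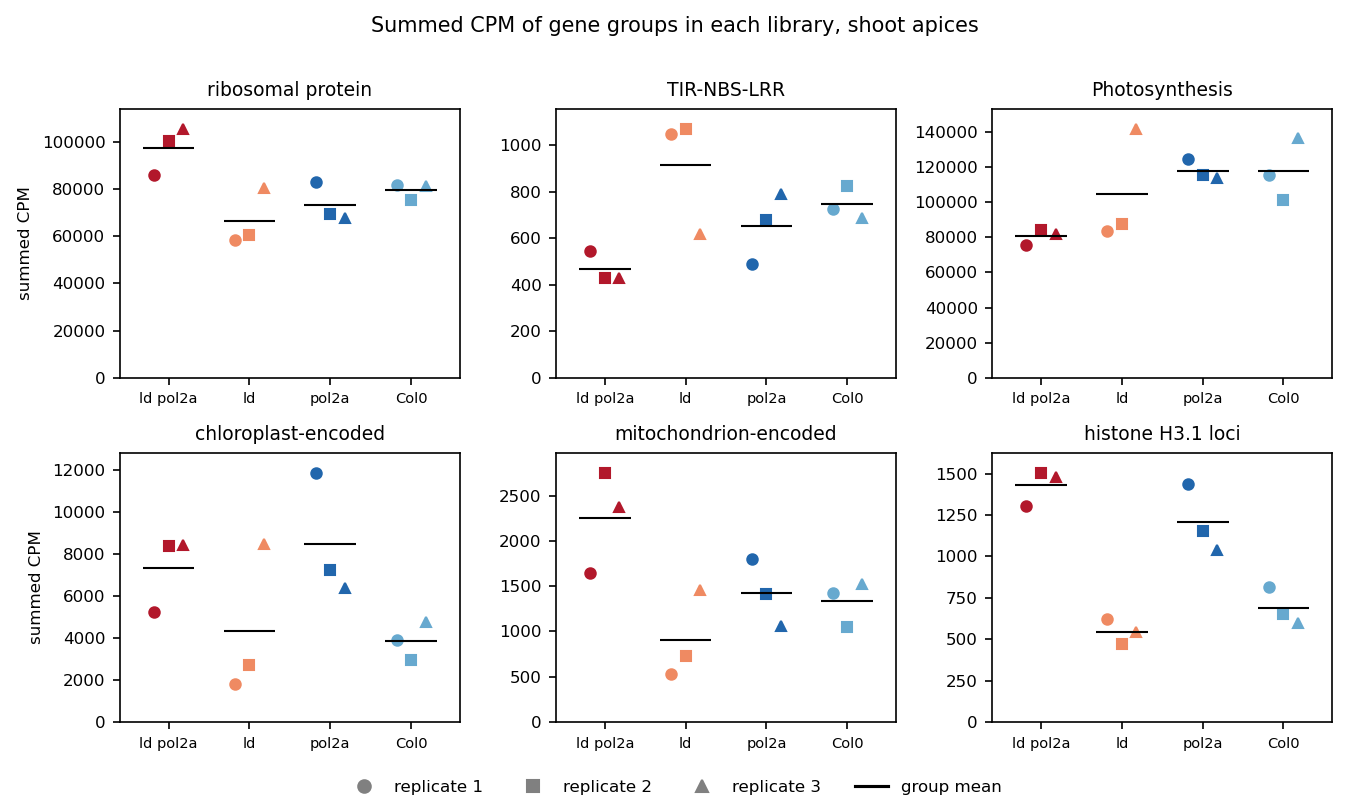
Summed levels of gene families in TMM-scaled CPM in the 12 apex libraries, 1 point per library, with lines at the group means. The ribosomal protein sums of ld pol2a, 85914 to 105550.4 CPM, lie above those of ld, 58245 to 80375 CPM, and the TIR-NBS-LRR sums lie below.

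Adding pol2a to ld called more genes than adding it to Col0, where 1129 were called (6.04%), 693 higher (3.7%) and 436 lower (2.33%). Leaving out 1 of 4 libraries lowered this count by over 1.5 times, to 640 and 527 without pol2a library 1 or 2 and to 538 and 515 without Col0 library 1 or 2. These comparisons share no library. Of the 672 genes called in both, 624 changed in the same direction, 485 higher and 139 lower, and 48 in opposite directions. The 624 were 9.81% of the calls in ld pol2a against ld and 55.3% of those in pol2a against Col0. Across all 18705 genes the changes had r = 0.418, a description across genes that are not independent. The sign was the same in 64.1% of all genes, in 74.2% of those called in ld pol2a and in 81.2% of those at least 2-fold changed.

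The test of the difference itself called 1410 genes (7.54%), 959 above 0 (5.13%) and 451 below (2.41%). Among the 6363 genes called in ld pol2a against ld, 1212 (19.0%) also differed from the effect in Col0. The count of 1410 moved with single libraries. Without ld library 3 it was 3619, and without that and Col0 library 3 it was 3594. It was 494 and 505 without ld pol2a library 2 or 3, 889 and 632 without ld library 1 or 2, 527 and 754 without pol2a library 2 or 3, and 534 and 631 without Col0 library 1 or 2.

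**Figure D5:**
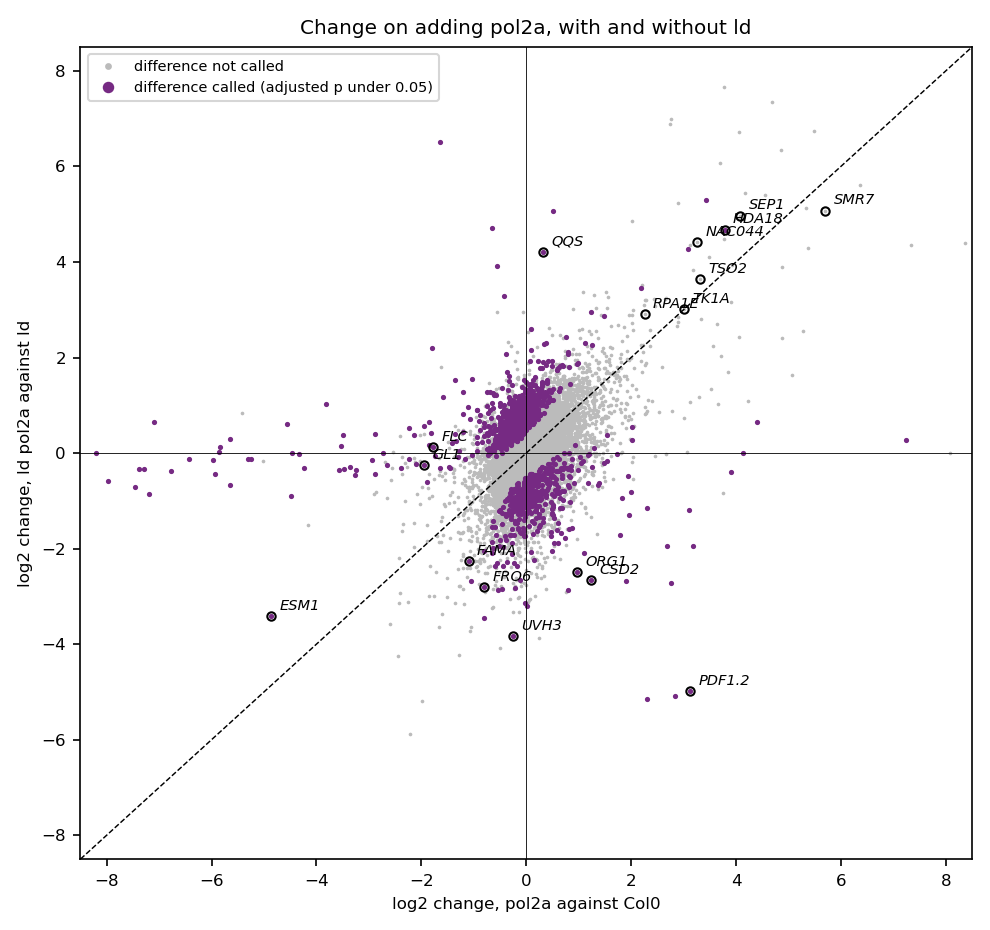
Log2 change of each of 18705 tested genes in ld pol2a against ld (vertical axis) and in pol2a against Col0 (horizontal axis), with genes called in the test of the difference marked, and 2 genes outside the axes. SMR7, NAC044, TSO2 and RPA1E lie in the upper right, and QQS lies high with a horizontal value near 0.31.

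In whole plantlets of the same pair of genotypes, the deposited values were gene counts scaled by the authors to a spike-in, and the median gene was 0.93 higher in ld pol2a than in ld on the log2 scale. Relative to that shift, the plantlet change had r = 0.336 with the apex change over 18085 genes, with the same sign in 62.9% of all and in 73.5% of those called in apices. Of 24 SOG1 genes with a plantlet value 21 lay above the shift, with a median of 1.65, and TSO2 was at 2.92 and SMR7 at 5.49. The stomatal list had a plantlet median of 0.02, with 5 of 9 members above the shift. Ribosomal protein genes had a median of 0.27. Some lists moved the other way from apices. Genes encoded in the mitochondrion had a plantlet median of -0.37, with 2 above the shift and 41 below. The floral repressors had a median of 0.27 and photosynthesis genes one of 0.13. Mitotic genes had 20 of 21 above the shift, with a median of 0.66. The plantlet table was normalised separately and is given as values only.

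Called genes were spread over the genome. The 5 chromosomes had 33.1% to 35.1% of their tested genes called, and 111 windows of 1 Mb with at least 20 genes had 25.8% to 45.5%, with a median of 34.5%. Within 1 Mb of POL2A 34.1% of 449 genes were called, within 1 Mb of LD 35.5% of 290, and within 1 Mb of GL1 41.2% of 260. UVH3 (chr3:10424179-10431364, plus strand) lies near GL1 (chr3:10361790-10363607, minus strand), as does SMR7.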

How the data were processed

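Polyadenylated RNA of dissected shoot apices was sequenced from 3 libraries each of ld pol2a, ld, pol2a and Col0. The authors deposited raw read counts per gene for 33562 genes. Trimmomatic 0.38, HISAT2, SAMtools 1.9, featureCounts, deepTools and DESeq2, and the build TAIR10, are listed in the submitters' processing notes. The notes do not say if strand was used in counting. For plantlets the authors deposited a spike-in scaled signal per gene. It was used for log2 ratios of group means without a test, for 19832 genes whose mean reached 10, relative to the median shift.

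Names and positions came from the TAIR10.1 annotation, which matched 32820 genes. Counts were fitted with edgeR 4.0.16 (R 4.3.3, TMM scaling, filterByExpr, robust quasi-likelihood test, Benjamini-Hochberg adjustment) over the 12 apex libraries, with 18705 genes tested and no block. SE is the absolute log2 change over the square root of F. The procedure was tested on simulated data. DESeq2 1.42.0, other scalings, no filter, a replicate block, fewer libraries and removal of a length trend (loess of each library on log2 exon length) were alternatives. The last, and leaving out ld library 3 together with Col0 library 3, were chosen after seeing the data.

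Named genes were LD, FLD, POL2A, FLC, SOC1 and GL1, the 12 largest rises and falls among called genes with a symbol in the annotation that averaged 50 counts or more with no overlap, and up to 4 members of each list with the smallest p. Others are marked as chosen after their values were seen. The members and lists were chosen with earlier results of these data known. Of 521 list members written, 20 could not be matched by symbol and were left out. Tables and figures were made with Python 3.11.15, pandas 2.3.3, NumPy 2.4.6 and matplotlib 3.10.9.

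Same-numbered libraries deviated together with r = 0.55, -0.25 and 0.39 in ld pol2a and ld, so they were not taken as pairs. In pol2a and Col0 the values were 0.30, 0.42 and 0.24, which met the rule for pairs from the data alone.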

Additional observations from a re-analysis of the deposited data

Results flagged for a closer look

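For each gene below, the change on adding pol2a to ld differed from the change on adding it to Col0 in the test of the difference (edgeR, adjusted p under 0.05). Values are log2 of the first change minus the second. GL1 (1.70), GL2 (2.80), QQS (3.90), NF-YC13 (1.72), UVH3 (-3.58), FRO6 (-2.01), TGG1 (-1.62), ORG1 (-3.47) and FAMA (-1.16) were called in each of 12 fits that left out 1 library. So were the defensins PDF1.2 (-8.11), PDF1.2c (-7.45) and PDF1.3 (-7.92), whose fitted values rest on groups with almost no reads and are not sizes of change. ORG1 was lower in every ld pol2a library than in any ld one, while every pol2a library was above every Col0 one, with 47.3, 73.4 and 74.8 CPM in pol2a and 33.8, 41.3 and 24.2 CPM in Col0. PDF1.2 had 5, 0 and 2 reads in ld pol2a and 61, 108 and 18 in ld, but 133, 133 and 33 reads in pol2a and 4, 2 and 29 in Col0.

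The other flagged genes lost the call in 3 to 10 of those 12 fits. FLC differed by 1.89, ESM1 by 1.46, chr31 by 1.40, NAC103 by 1.26, PCNA1 by 0.91, HDA18 by 0.89 and MSI1 by 0.45. CSD2 differed by -3.90, KAT1 by -1.27, MYB60 by -1.21, RVE1 by -1.10, PRR7 by -1.07, RVE4 by -0.97, PP2-A1 by -0.91 and SUC2 by -0.64.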

How the results depend on the processing

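The count of 6363 genes was 6409 with RLE size factors, 6332 with upper-quartile scaling, 6602 with DESeq2, 5872 without a filter and 4994 from the 6 libraries alone. With a replicate block it was 7210, although the numbers did not pair these libraries, and 6906 from the 6 libraries with the block. In pol2a against Col0 the block moved 1129 genes to 1471, and for the difference 1410 to 1915. At least 2-fold, 1673 genes were called, 833 higher and 840 lower. Leaving out 1 library gave 3862 to 8441 genes, 2142 to 4138 higher and 1712 to 4303 lower, 515 to 922 in pol2a against Col0, and 494 to 3619 for the difference. Without ld library 3 and Col0 library 3, 8986 genes were called in ld pol2a against ld, 4578 higher and 4408 lower, 1991 in pol2a against Col0 and 3594 for the difference. With all libraries the changes of POL2A and FLC were not called, and they turned sign in some fits. POL2A was called with the length trend removed, and FLC without ld library 3. POL2A was at 0.013 with the block, 0.0078 with the block and 6 libraries, 0.08 without ld pol2a library 3, 0.30 without ld library 1, -0.32 without ld library 3 and 0.64 with the length trend removed. FLC was at -0.05 without ld library 1, -0.057 without ld library 2, 0.48 without ld library 3 and Col0 library 3 and -0.011 with the length trend removed. The cause was not tested. Of 1736 values of 116 named genes under alternatives, 1607 kept their direction and side of the threshold, 116 lost the call, 5 gained it and 8 turned sign. Of 345 counts over lists, 282 stayed within 1.5 times.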
